A study of Homo sapiens with 6 samples.

Results

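Accessible sites around ITGA2B and ITGB3 were examined in K562, a human cell line from a chronic myelogenous leukaemia, by ATAC-seq, in which a transposase cuts open chromatin and reads over a site count those cuts. Every site of the deposited table that overlapped either gene, extended by 100 kb on each side, was taken, which gave 63 of 181135 sites, 30 around ITGA2B and 33 around ITGB3. Cells of wild-type genotype were treated with 25 nM the phorbol ester PMA, an activator of protein kinase C, and taken after 0, 6 or 72 h. The labels describe the treatment as megakaryocyte differentiation, with medium changed after 24 h and 48 h, and each time had 2 libraries from the same cell line. The labels do not say whether the 2 libraries of a time came from separate cultures, so p-values measure the spread between these libraries, which may be technical. Reads in all listed sites summed to between 12258890 and 35548737 per library, and the shallowest and a deep library (33634403) were both from 6 h. Accessibility is given in CPM, the count of a site scaled to its library's TMM-adjusted size, and 1 CPM stood for 11.7 to 42.4 counts.

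ITGA2B encodes the alphaIIb subunit and ITGB3 the beta3 subunit of the fibrinogen receptor of megakaryocytes and platelets. The subunits pair in the endoplasmic reticulum, and on activated platelets the pair binds fibrinogen and von Willebrand factor and links platelets together. AlphaIIb is restricted to the megakaryocyte lineage and early progenitors and pairs only with beta3, while beta3 also pairs with alphaV on other cells. Both genes lie on the long arm of chromosome 17, ITGA2B at chr17:44372181-44389649 on the minus strand and ITGB3 at chr17:47253827-47313743. All 7 erythroid marker genes examined had a site within 1000 bases of a gene end. Of the megakaryocyte markers, ITGA2B, ITGB3, GP9 and GP1BA had one, and PF4 and VWF had none. Some markers of other lineages also had such sites, as CSF3R and SPI1 with 37.0 and 38.1 CPM at 0 h, while CD14, CDH1 and ALB had none. A site near a gene end does not show that the gene is expressed.

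RefSeq promoters (GRCh38.p14, 250 bases before to 50 after the annotated start) could be printed for 4 genes whose start sites lie in the windows. They show how the ITGA2B start differs in base composition from the neighbouring starts whose accessibility is compared with it below. Capitals mark matches, on either strand, to any of the motifs GATAA (GATA factors), AGGAAG (ETS factors), TGTGGT (RUNX factors), TGANTCA (AP-1) and CACCC (KLF factors), and all are written 5′ to 3′ in the direction of the gene.
ITGA2B (chr17:44389600-44389899, minus strand): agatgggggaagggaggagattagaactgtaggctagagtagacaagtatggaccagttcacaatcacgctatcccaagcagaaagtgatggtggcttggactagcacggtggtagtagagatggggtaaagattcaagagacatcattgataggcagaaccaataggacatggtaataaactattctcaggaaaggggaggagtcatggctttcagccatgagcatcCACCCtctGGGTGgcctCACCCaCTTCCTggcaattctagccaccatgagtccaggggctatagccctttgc
SLC25A39 (chr17:44324774-44325073, minus strand): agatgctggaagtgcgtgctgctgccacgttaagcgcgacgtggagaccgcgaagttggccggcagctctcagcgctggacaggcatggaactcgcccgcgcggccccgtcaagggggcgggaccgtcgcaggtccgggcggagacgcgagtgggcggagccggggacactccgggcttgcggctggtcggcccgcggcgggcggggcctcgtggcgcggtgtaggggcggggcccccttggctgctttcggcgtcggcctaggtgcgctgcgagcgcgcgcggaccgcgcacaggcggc
GRN (chr17:44345052-44345351, plus strand): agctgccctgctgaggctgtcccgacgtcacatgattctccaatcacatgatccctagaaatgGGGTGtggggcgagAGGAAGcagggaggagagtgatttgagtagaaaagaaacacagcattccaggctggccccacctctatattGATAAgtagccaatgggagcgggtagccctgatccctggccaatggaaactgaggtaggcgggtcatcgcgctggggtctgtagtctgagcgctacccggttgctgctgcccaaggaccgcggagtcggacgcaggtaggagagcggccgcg
CDC27 (chr17:47189246-47189545, minus strand): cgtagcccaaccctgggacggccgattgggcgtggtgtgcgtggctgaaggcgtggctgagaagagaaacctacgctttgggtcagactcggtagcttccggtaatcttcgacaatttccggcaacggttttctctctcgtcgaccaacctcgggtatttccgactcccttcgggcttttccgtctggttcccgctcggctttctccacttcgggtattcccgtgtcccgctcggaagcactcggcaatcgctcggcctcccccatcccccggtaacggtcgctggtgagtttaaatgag
The ITGA2B promoter held 2 CpG dinucleotides in 300 bases, and 11% of 35116 RefSeq promoters of that length held fewer. SLC25A39 held 46, CDC27 30 and GRN 16, against a median of 14. In the ITGA2B sequence CACCC matched at bases 229 to 233 and 246 to 250 and as its reverse complement at 237 to 241, and AGGAAG matched as its reverse complement at 252 to 257, without overlap between motifs. The GATA, RUNX and AP-1 motifs had no match in these letters. Of all promoters 59.9% held the KLF motif, 33.6% the ETS motif, 22.7% the GATA motif, 13.1% the RUNX motif and 7.71% the AP-1 motif, so a match is a description of the letters.

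The site over the ITGA2B start lost accessibility by 6 h and was intermediate at 72 h. It spans chr17:44389427-44390320 (894 bases). The 2 untreated libraries had 27.3 and 24.6 CPM, the 6 h libraries 7.67 and 10.7, and the 72 h libraries 12.9 and 16.0. The 3 pairs of libraries did not overlap, with 0 h highest and 6 h lowest. By 6 h it had changed by −1.47 on the log2 scale (SE 0.20, edgeR adjusted p 4.7e-06), by 72 h by −0.84 (SE 0.19, 0.00053), and between these times by 0.62 (SE 0.20, 0.014). The fall at 6 h was called under all 5 scalings between libraries. At 72 h it lost its call with library totals as scaling (−0.35), with loess offsets fitted to site strength (−0.20) and with peak-anchored factors, which are TMM factors computed from sites with a peak in each library (0.12, the opposite sign). The rise from 6 h to 72 h was not called without 6 h replicate 1 (0.43, edgeR adjusted p 0.14) or without 72 h replicate 2 (0.51, 0.14).

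Within the ITGA2B gene there were 3 further sites, and at 72 h all were called lower. The gene table gives no exons, so sites inside a gene were not divided into exonic and intronic ones. The strongest lay 4.1 kb downstream of the start (chr17:44385093-44386002), with 33.7 and 29.8 CPM untreated, 19.8 and 20.7 by 6 h, and 11.6 and 9.22 by 72 h. It was lower at each later time on the TMM scale, with log2 fold changes of −0.65 by 6 h (SE 0.17, edgeR adjusted p 0.0049), −1.61 by 72 h (SE 0.17, 7.1e-08) and −0.96 (SE 0.18, 0.00016) between 6 and 72 h. Its 72 h fall held under all 5 scalings. The fall by 6 h was not called with peak-anchored factors (−0.35), nor the one from 6 to 72 h with these or with loess offsets (−0.28 at the smallest, adjusted p up to 0.23). The site 14.62 kb downstream went from 4.03 and 4.4 CPM to 2.13 and 2.09 and then 0.905 and 1.30, a change of −1.93 (SE 0.32, edgeR adjusted p 1.8e-05) at 72 h that also held under all 5. Its change at 6 h, −1.0 (edgeR adjusted p 0.016), was not called with peak-anchored factors (−0.71) or without 0 h replicate 2 (−0.93) or 6 h replicate 2 (−1.04). The last, 13.37 kb downstream, changed by −0.92 (edgeR adjusted p 0.018) at 72 h, a call lost without 0 h replicate 2 (−0.90) or 72 h replicate 2 (−0.77), under total counts (−0.42) and with peak-anchored factors (0.045).

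**Figure D1:**
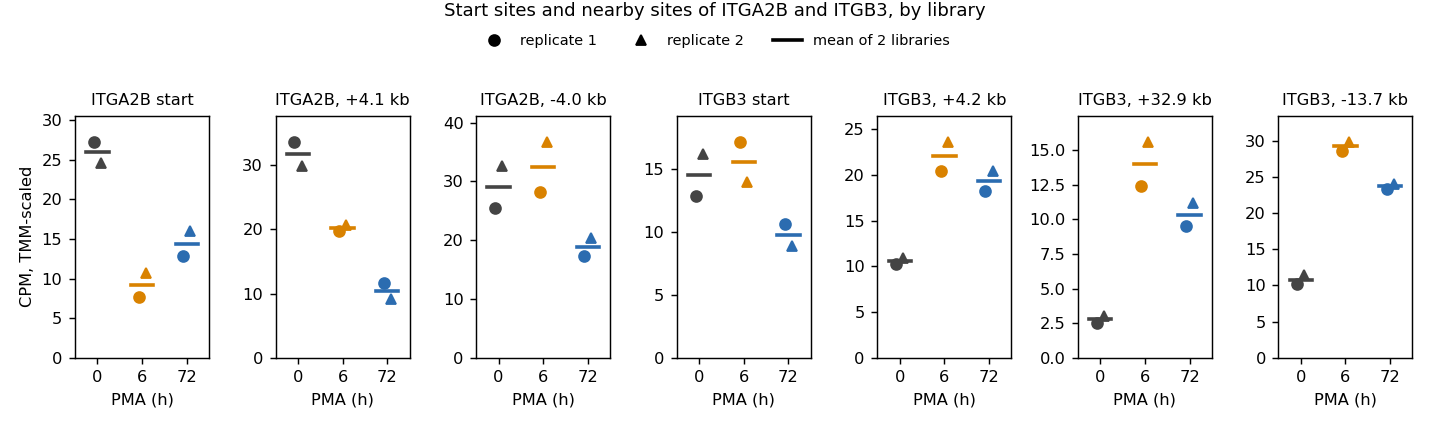
CPM per library (vertical axis from 0, its own scale in each panel) against hours of PMA for 7 sites, with a bar at the mean of 2 libraries. The ITGA2B start is lowest at 6 h (7.67 and 10.7 CPM), the site 4.1 kb inside ITGA2B falls at each time, and the 3 sites around the ITGB3 start rise by 6 h while the start itself (12.8 to 17.1 CPM at 0 and 6 h) does not separate.

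Immediately upstream of ITGA2B, 3.99 kb from the start and between it and GPATCH8, lay a site of like height (chr17:44393102-44394176), chosen after its values were seen. Untreated it had 25.5 and 32.6 CPM, by 6 h 28.1 and 36.7, and by 72 h 17.3 and 20.4. The 0 h and 6 h libraries overlapped, and the log2 fold change at 6 h was 0.16 (SE 0.17, edgeR adjusted p 0.48), and the start site beside it fell by 1.47; the difference between them was not tested. At 72 h the change was −0.63 (adjusted p 0.0031), and was not called with total counts (−0.13) or without 0 h replicate 2 (−0.44) or 72 h replicate 1 (−0.52). With loess offsets it was called in the other direction (0.40, edgeR adjusted p 0.032), and with peak-anchored factors it was 0.34 (0.071). At 6 h the site was called higher with peak-anchored factors (0.46, 0.030).

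The 2 distal sites that opened most in the ITGA2B window lay far from the gene. One was intergenic, 60.95 kb downstream of the ITGA2B start between SLC25A39, which encodes a mitochondrial carrier, and GRN, which encodes the growth factor precursor progranulin (chr17:44328362-44329040). Untreated libraries had 1.75 and 3.39 CPM there, those of 6 h 19.3 and 24.0, and those of 72 h 13.0 and 14.3. Every 6 h and 72 h library was thus far above both 0 h libraries. It rose by 3.04 on the log2 scale by 6 h (SE 0.25, edgeR adjusted p 6.1e-09) and by 2.37 by 72 h (SE 0.25, 5.0e-08), and changed by −0.67 (0.015) from 6 to 72 h. The last call held in 7 of 13 alternatives (−0.82 to 0.00) and was lost with total counts, loess offsets and peak-anchored factors and without 6 h replicate 2 or either 72 h library. Without 0 h replicate 1 the rises were 2.62 and 2.0, and without 0 h replicate 2 they were 3.64 and 2.96. The other lay inside GPATCH8, 28.06 kb upstream of the ITGA2B start (chr17:44417407-44418007), with 2 and 6 counts untreated, 53 and 66 by 6 h, and 131 and 102 by 72 h. In CPM it went from 0.130 and 0.287 to 4.52 and 2.09 and then 3.39 and 2.41, with fold changes of 3.80 (SE 0.55, edgeR adjusted p 9.7e-06) and 3.70 (SE 0.53, 3.2e-06). Leaving out 0 h replicate 2 gave 4.52 and 4.43, and leaving out 6 h replicate 1 gave 3.23 at 6 h. Both sites had a deposited peak in every 6 h and 72 h library and in no 0 h library, and both were called higher at 6 h and 72 h under all 5 scalings. Weaker gains were 1.51 (adjusted p 0.0029) at 72 h for the intergenic site 50.79 kb downstream, not called with loess offsets (0.86) or without 0 h replicate 2 (1.01) or 72 h replicate 1 (1.18). The site 111.6 kb downstream, which had no deposited peak in any library, gained 1.82 (edgeR adjusted p 0.0043), not called with loess offsets (1.21) or DESeq2 (1.65).

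Among the sites of the ITGA2B window outside the gene that closed, those with the largest falls were weak at 0 h. The intergenic site 107.7 kb downstream of the start (chr17:44281807-44282026) went from 2.86 and 1.62 CPM to 0.937 and 0.506 and then 0.207 and 0.118, a log2 fold change of −1.74 by 6 h (SE 0.50, edgeR adjusted p 0.0079) and −3.74 by 72 h (SE 0.54, 3.1e-06). At 6 h it was not called without 0 h replicate 1 (−1.35) or 6 h replicate 2 (−1.28). The site overlapping RUNDC3A near an end of both it and SLC25A39, 70.8 kb downstream, changed by −2.05 by 6 h (edgeR adjusted p 0.0014) and −2.94 by 72 h (9.4e-06), and without 0 h replicate 2 by −1.43 (0.066) and −2.32. The intergenic site 58.16 kb downstream, only a few kb from the one that opened, changed by −1.16 by 6 h (edgeR adjusted p 0.0047) and −1.34 by 72 h (0.00041), the latter −0.37 and not called with peak-anchored factors. The site inside GRN, 38.7 kb downstream, was not called at 6 h (−0.51, edgeR adjusted p 0.16, but −0.85 and called with loess offsets) and changed by −1.61 (4.2e-05) by 72 h, or −0.64 without a call with peak-anchored factors. A site inside GPATCH8, 55.24 kb upstream, was higher by 1.14 (0.0059) at 6 h, under all 5 scalings, a call lost without 0 h replicate 1 or 6 h replicate 2 (0.80 at the smallest). At 72 h it was not called (0.31, 0.39), but was with total counts and peak-anchored factors (up to 1.28). A strong site, chosen after its values were seen, lay 101.1 kb downstream (chr17:44288062-44289016), with 44.8 and 37.2 CPM untreated, 20.5 and 20.2 by 6 h, and 15.9 and 14.2 by 72 h. It was called lower at both times under all 5 scalings, with −1.01 (edgeR adjusted p 3.9e-05) and −1.44 (1.1e-07) on the TMM scale.

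**Figure D2:**
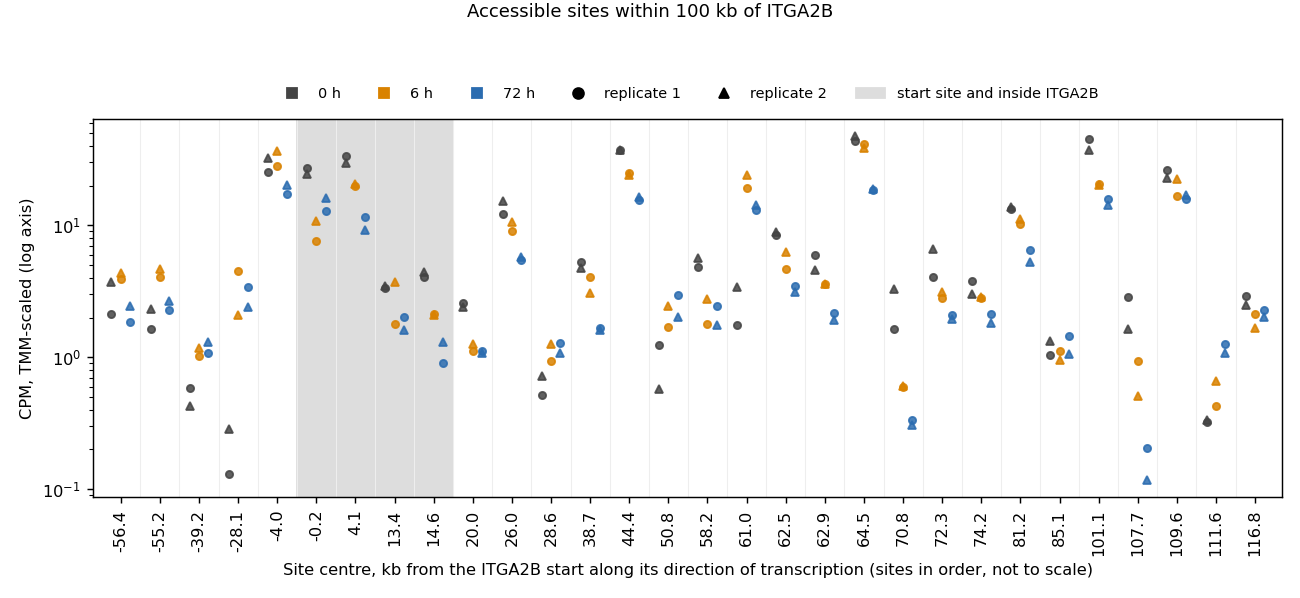
CPM (log axis) of the 30 sites of the ITGA2B window in each of 6 libraries, in order along the gene's direction and labelled by distance from its start in kb, with the gene shaded. The 2 sites 28.06 kb upstream and 60.95 kb downstream rise from at most 3.39 CPM at 0 h, while most sites in and around the gene are lower at 72 h than at 0 h.

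On the TMM scale the neighbouring starts were lowest at 72 h. The SLC25A39 start (chr17:44324452-44325750) had 43.5 and 47.3 CPM untreated, 41.3 and 38.4 by 6 h, and 18.6 and 19.0 by 72 h. Its change at 6 h was −0.19 (SE 0.15, edgeR adjusted p 0.32) and at 72 h −1.27 (SE 0.15, 1.8e-07). The GRN start (chr17:44344826-44345722) fell at both times, from 37.0 and 37.3 CPM to 24.9 and 24.3 (−0.60, edgeR adjusted p 0.0038, not called with peak-anchored factors at −0.30) and to 15.5 and 16.4 (−1.22, 5.6e-07). With loess offsets the values of these starts by 72 h were −0.10 and −0.23 and neither was called, nor with peak-anchored factors (−0.30 and −0.25). Against 0 h the change of the GRN start at 6 h was −0.39, called, with loess offsets and −0.30, not called, with peak-anchored factors. Its fall from 6 to 72 h on the TMM scale (−0.62) was called under neither of these scalings. The ITGA2B start was lowest at 6 h, and the difference between these time courses was not tested.

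The ITGB3 start did not open. The site spans chr17:47253592-47254282 (691 bases), and the strand of ITGB3 was taken as plus from general knowledge. Untreated libraries had 12.8 and 16.2 CPM, those of 6 h 17.1 and 13.9, and those of 72 h 10.6 and 8.87. The 0 h and 6 h libraries overlapped, and both 72 h libraries lay below them. On the log2 scale it changed by 0.09 by 6 h (SE 0.20, edgeR adjusted p 0.76), by −0.58 by 72 h (SE 0.20, 0.014) and by −0.66 in between (SE 0.20, 0.010). The fall at 72 h was called under TMM and RLE alone among the 5 scalings, with −0.073 under total counts, −0.034 under loess offsets and 0.40 with peak-anchored factors. It was also lost without 0 h replicate 2 (−0.40, edgeR adjusted p 0.14) or 72 h replicate 2 (−0.45, 0.16), and the fall from 6 h without 6 h replicate 1 (−0.52, 0.087) or 72 h replicate 2 (−0.49, 0.19).

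Inside ITGB3 several sites opened. Of 15 sites between the start site and the end of the gene, 7 were called higher and 1 lower at 6 h, and 8 higher and 2 lower at 72 h, where 23.4% of all tested sites were called higher and 16.8% lower at 6 h, and 38.2% and 29.2% at 72 h. Their median log2 fold change was 0.84 at 6 h and 0.87 at 72 h, against 0.05 and 0.29 for all tested sites. Under all 5 scalings 4 of the 15 were higher at 6 h and 6 at 72 h, and 1 was lower at each time. The share of all tested sites called under all 5 was not computed, so these counts cannot be set against it.

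Among the sites in ITGB3 with a peak in every treated library, the largest gain was at 32.92 kb (chr17:47286392-47287094). Untreated it had 2.53 and 3.01 CPM, by 6 h 12.4 and 15.6, and by 72 h 9.49 and 11.2. It rose by 2.34 on the log2 scale by 6 h (SE 0.24, edgeR adjusted p 1.1e-07) and by 1.89 by 72 h (SE 0.24, 5.4e-07). Over all alternatives it ran from 2.1 to 2.64 and from 1.71 to 2.86, and neither 0 h peak list overlapped it. The site nearest the start, 4.18 kb into the gene (chr17:47257584-47258438), was already open at 0 h with a peak in all 6 libraries. It rose from 10.3 and 10.9 CPM to 20.5 and 23.7 at 6 h and was 18.3 and 20.5 at 72 h, changes of 1.06 (SE 0.18, edgeR adjusted p 7.3e-05) and 0.87 (SE 0.18, 0.00021). Both calls held under all 13 alternatives.

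A pair of neighbouring narrow sites, 13.46 and 13.77 kb into ITGB3 (chr17:47267180-47267386 and chr17:47267483-47267713), was nearly closed at 0 h. The first had 5 and 1 counts untreated, 24 and 63 by 6 h, and 54 and 66 by 72 h, with log2 fold changes of 3.55 (SE 0.60, edgeR adjusted p 6.0e-05) and 3.1 (SE 0.59, 9.6e-05). Without 0 h replicate 1 these were 5.22 and 4.82, and without 0 h replicate 2 they were 2.62 and 2.17. The second had 6 and 6 counts untreated, 33 and 118 by 6 h, and 127 and 134 by 72 h, with 3.32 (SE 0.43, edgeR adjusted p 2.3e-06) and 3.26 (SE 0.42, 6.6e-07). Only the second overlapped a deposited peak, in 1 library of 6 h, so the peak lists alone would not show this opening. The pair is nearly adjacent, so these are not independent measurements.

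Sites 25.5 and 27.49 kb into ITGB3 were called higher at 72 h and not at 6 h on the TMM scale. The first (chr17:47278926-47279722) went from 6.11 and 6.45 CPM to 8.01 and 9.39 at 6 h (0.48, edgeR adjusted p 0.081) and 13.0 and 13.7 at 72 h (1.09, SE 0.21, 9.9e-05), and gained 0.61 between 6 and 72 h (adjusted p 0.019). No 2 groups overlapped. At 6 h it was called higher with total counts (0.62, edgeR adjusted p 0.023) and with peak-anchored factors (0.78, 0.0048). The gain from 6 to 72 h was not called with DESeq2, nor without 6 h replicate 1 or either 72 h library (0.51 at the smallest). The second (chr17:47281220-47281419) had 4 and 10 counts untreated, 6 and 25 by 6 h, and 84 and 70 by 72 h, a change of 2.31 by 72 h (SE 0.48, edgeR adjusted p 0.00026) and of 1.46 (0.0092) from 6 to 72 h, the latter not called with loess offsets, with DESeq2 or without 72 h replicate 1 (0.96 at the smallest). It overlapped no deposited peak, and its 72 h value was 2.85 without 0 h replicate 2.

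The gains called by 6 h elsewhere in ITGB3 were small. The site at 12.32 kb changed by 0.62 (edgeR adjusted p 0.013), that at 21.72 kb by 0.54 (0.041) and that at 26.82 kb by 0.74 (0.049). All 3 calls were lost with RLE (0.48, 0.39 and 0.59) and with DESeq2 (0.47, 0.39 and 0.59), and the one at 26.82 kb with loess offsets (0.41). They were also lost without 6 h replicate 2 (0.41, 0.26 and 0.47) and with other libraries left out, without 0 h replicate 2 at 12.32 kb (0.36) and 21.72 kb (0.49), without 0 h replicate 1 at 21.72 kb (0.53) and 26.82 kb (0.43), and without either 72 h library at 21.72 kb (0.48) and 26.82 kb (0.68). The site at 12.32 kb had 22.2 and 14.8 CPM at 0 h, and its change at 72 h of 0.35 (edgeR adjusted p 0.11) became 0.65 (0.0076) without 0 h replicate 1. With other scalings it was called higher at 72 h, by 0.84 with total counts, 1.28 with loess offsets and 1.31 with peak-anchored factors.

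ITGB3 also held sites that closed. The clearest lay 37.93 kb into the gene (chr17:47291553-47291962), with 6.63 and 3.44 CPM untreated, 1.70 and 1.58 by 6 h, and 1.37 and 0.873 by 72 h. Its change was −1.61 by 6 h (SE 0.37, edgeR adjusted p 0.0014) and −2.15 by 72 h (SE 0.35, 1.7e-05), and −1.14 and −1.63 without 0 h replicate 1. The strong site 34.9 kb into the gene was not called at 6 h (0.06, edgeR adjusted p 0.80) and was called lower at 72 h (−0.51, 0.015). That fall was not called without 0 h replicate 1 (−0.38), 72 h replicate 1 (−0.46) or 72 h replicate 2 (−0.56), nor with total counts (−0.007) or loess offsets (0.24), and with peak-anchored factors it was called in the other direction (0.46, 0.022). The site 47.61 kb into the gene changed by 0.17 and 0.21 with no call.

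**Figure D3:**
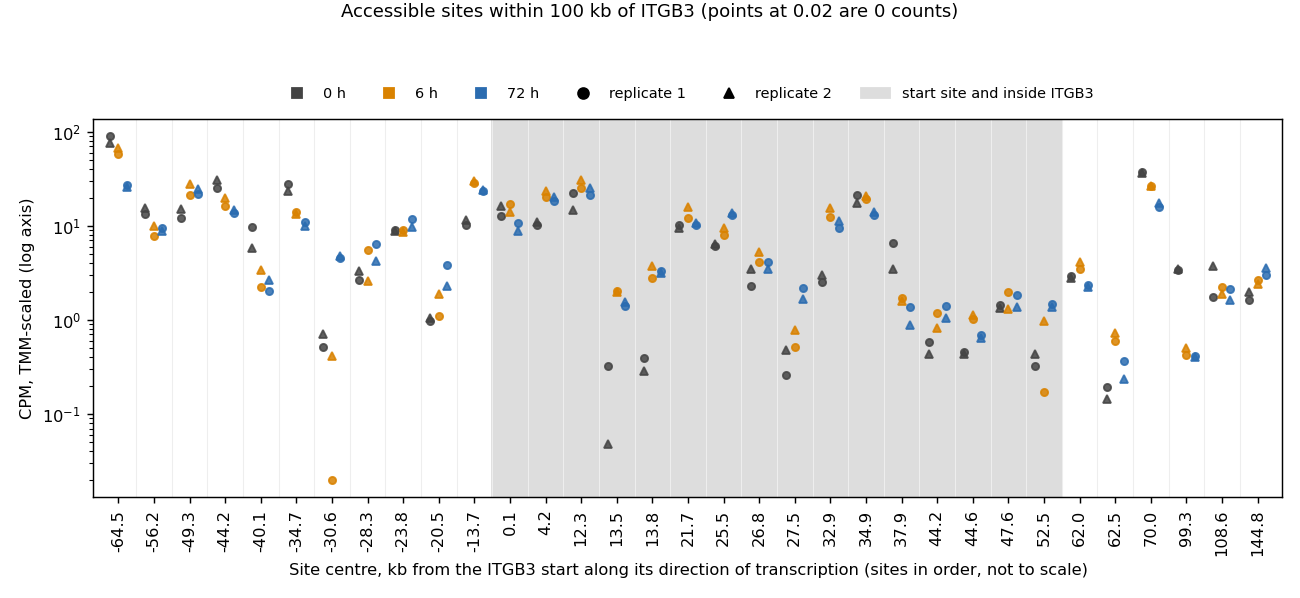
CPM (log axis, with 0 counts drawn at 0.02) of the 33 sites of the ITGB3 window in each of 6 libraries, in order along the gene and labelled by distance from its start in kb, with the gene shaded. Inside the gene the points of 6 h and 72 h lie above those of 0 h at 4.18, 13.46, 13.77 and 32.92 kb, and below them at 37.93 kb.

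Upstream of ITGB3 an intergenic site 13.65 kb before the start (chr17:47239749-47240613) was more accessible at both times of treatment. Untreated it had 10.1 and 11.5 CPM, by 6 h 28.6 and 29.9, and by 72 h 23.4 and 24.1, and no 2 times overlapped. It rose by 1.43 on the log2 scale by 6 h (SE 0.17, edgeR adjusted p 8.0e-07) and by 1.13 by 72 h (SE 0.17, 4.9e-06), and both calls held under all 13 alternatives. A deposited peak covered it in every library. A weaker intergenic site 20.48 kb upstream, chosen after its values were seen, was called higher at 72 h (1.60, edgeR adjusted p 0.0010) under all 5 scalings. Further upstream, MYL4, which encodes a myosin light chain of embryonic and atrial muscle, held sites that moved in opposite directions.

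One MYL4 site, 30.59 kb upstream of the ITGB3 start (chr17:47222956-47223516), opened between 6 and 72 h. Counts were 8 and 15 untreated, 0 and 13 by 6 h, and 174 and 203 by 72 h. Between 6 and 72 h it rose by 4.0 (SE 0.48, edgeR adjusted p 2e-06), and its change against 0 h was 2.88 (SE 0.43, 5.6e-06) at 72 h and −1.13 (0.16) at 6 h. Without 6 h replicate 2 the one 6 h library left had 0 counts and the site was called lower at 6 h (edgeR adjusted p 0.010), with a fitted size that depends on the prior count and is not given. Both 72 h libraries had a peak there and no other library did. Another site inside MYL4, 49.26 kb upstream and chosen after its values were seen, was higher at both times, from 12.1 and 15.1 CPM to 21.3 and 28.1 (0.87, edgeR adjusted p 0.00074) and to 21.7 and 24.6 (0.77, 0.00093). Its 6 h call was lost without 6 h replicate 2 (0.59, 0.056).

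Closing sites of MYL4 lay between these. The site 40.14 kb upstream went from 9.75 and 5.88 CPM to 2.22 and 3.38 and then 2.04 and 2.69, changes of −1.41 (edgeR adjusted p 0.00081) and −1.71 (2.8e-05). The site 34.7 kb upstream went from 27.6 and 23.6 CPM to 14.1 and 13.5 and then 10.9 and 9.97, changes of −0.89 (0.00044) and −1.29 (1.7e-06), the latter −0.33 and not called with peak-anchored factors. On the other side of ITGB3, a site inside EFCAB13, 99.27 kb beyond the ITGB3 start (chr17:47352804-47353389), was nearly lost, with 3.38 and 3.49 CPM untreated, 0.426 and 0.506 by 6 h, and 0.414 and 0.401 by 72 h. Its change was −2.83 by 6 h (SE 0.43, edgeR adjusted p 1.8e-05) and −3.06 by 72 h (SE 0.40, 7.6e-07), and both calls held under all 13 alternatives. Only the 0 h libraries had a peak there. The weak site 62.52 kb beyond the start was called higher at 6 h (2.0, edgeR adjusted p 0.030) from 3 and 3 counts at 0 h, a call lost whenever a library other than 6 h replicate 1 was left out (1.76 to 2.15).

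The site over the start of CDC27, which encodes a subunit of the anaphase-promoting complex, and an end of MYL4 (chr17:47188734-47189895) had 89.3 and 77.0 CPM untreated, 57.6 and 66.6 by 6 h, and 27.0 and 25.8 by 72 h. It changed by −0.42 by 6 h (SE 0.14, edgeR adjusted p 0.021) and by −1.66 by 72 h (SE 0.14, 3.7e-09). The 6 h call was lost with total counts (−0.28), loess offsets (0.00062) and peak-anchored factors (−0.12) and without 0 h replicate 1 (−0.37) or 6 h replicate 1 (−0.32), and the 72 h value was −0.19 without a call under loess offsets. The site at an end of EFCAB13 also fell at 72 h, from 37.3 and 36.3 CPM to 15.8 and 17.3 (−1.15, edgeR adjusted p 1.2e-06), a call lost with loess offsets and peak-anchored factors (−0.15 at the smallest).

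Over the whole ITGA2B window, falls outnumbered rises. At 6 h 4 of 30 sites were called higher and 11 lower, at 72 h 5 higher and 20 lower, and from 6 to 72 h 1 higher and 15 lower. All 63 sites of both windows had passed the filter on low counts. In all, 15 of the 30 were called at 6 h where 40.1% of all tested sites were, 83.3% at 72 h where 67.4% were, and 53.3% between 6 and 72 h where 42.9% were (22.1% higher and 20.9% lower). Libraries did not overlap at 27, 27 and 20 sites of the ITGA2B window and at 26, 30 and 23 of the ITGB3 window, where 68.0%, 84.6% and 73.1% of all tested sites did not. The F test over all 3 times called 25 sites in each window, and 72.0% of all tested sites. The ITGB3 window had 10 higher and 8 lower of 33 at 6 h, 14 and 10 at 72 h and 4 and 5 from 6 to 72 h, or 54.5%, 72.7% and 27.3% called. Its median log2 fold change was 0.48 at 6 h and 0.39 at 72 h, and that of the ITGA2B window −0.41 and −1.05, against 0.05 and 0.29 for all tested sites. The difference between the windows was not tested. From 6 to 72 h the ITGA2B window had 7 calls without 6 h replicate 2, 6 without 72 h replicate 1 and 4 without 72 h replicate 2, and the ITGB3 window 4 without 72 h replicate 1 and 5 without 72 h replicate 2. At 6 h the ITGA2B window had 9 calls without 0 h replicate 2.

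**Figure D4:**
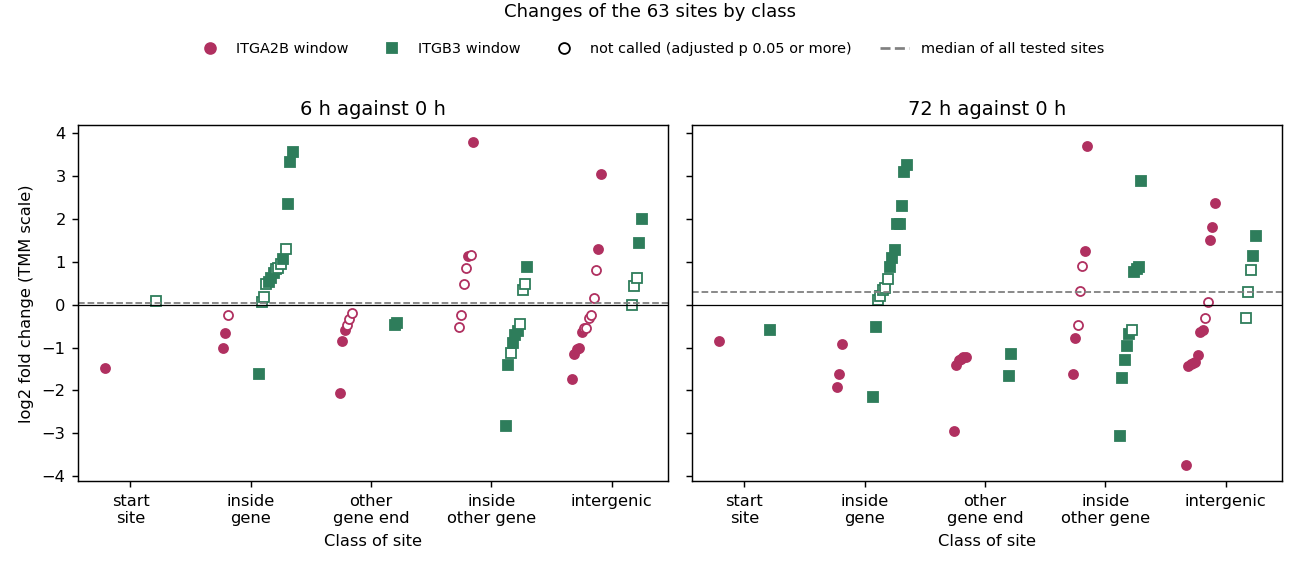
Log2 fold change on the TMM scale of each of the 63 sites at 6 h and 72 h against 0 h, by class of site and window, with open symbols where the adjusted p was 0.05 or more and a dashed line at the median of all tested sites (0.05 and 0.29). All 8 sites at ends of other genes lie below 0 at both times, while the sites inside ITGB3 reach 3.55 at 6 h.

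The sites were also counted by class at 72 h. All 8 sites at ends of other protein-coding genes were called lower under TMM, with a median of −1.29, though 1 of the 8 under all 5 scalings. Of 19129 sites at ends of protein-coding genes 68.7% were lower, with a median of −1.16, so a fall at such sites was usual. Both integrin starts were called lower by less (−0.84 and −0.58). Of 17 sites inside other genes 6 were higher and 7 lower, and of 18 intergenic sites 5 were higher and 8 lower, where 38.2% of all tested sites were higher and 29.2% lower. Strength moved with this: all tested sites with a mean of at least 20 CPM had a median of −1.35 at 72 h and those under 1 CPM 0.73, and the members in these ranges had −1.15 and 1.26. The part of site strength in the differences between classes was not tested beyond the loess offsets.

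Direction also rested on the scaling between libraries. For the 72 h comparison the median over every tested site was 0.29 with TMM, 0.11 with RLE, 0.79 with total counts, −0.04 with loess offsets and 1.26 with peak-anchored factors. At 72 h the ITGA2B window had 5 sites higher and 20 lower under TMM and under RLE, 7 and 14 with total counts, 3 and 17 with loess offsets and 9 and 5 with peak-anchored factors. For the ITGB3 window these were 14 and 10, 12 and 10, 18 and 7, 13 and 6, and 22 and 4. Among all 177759 tested sites they were 67907 and 51979, 61761 and 58046, 85259 and 34733, 51577 and 56106, and 102809 and 19527. At 6 h, in the same order, the ITGA2B window had 4 and 11, 4 and 14, 5 and 8, 3 and 15, and 6 and 5, and the ITGB3 window 10 and 8, 7 and 8, 12 and 6, 9 and 6, and 12 and 4. All tested sites then had 41508 and 29857, 36910 and 38559, 46174 and 22424, 34295 and 36185, and 52554 and 15471. From 6 to 72 h the ITGA2B window had 1 and 15 under TMM and RLE, 2 and 5, 1 and 6, and 3 and 1, and the ITGB3 window 4 and 5 under both, then 8 and 1, 7 and 3, and 12 and 1. All tested sites had 39208 and 37109, 37702 and 38743, 57103 and 20490, 29131 and 26784, and 77056 and 9307. Called the same way at 72 h under all 5 scalings were 2 higher and 5 lower sites of the ITGA2B window and 10 higher and 3 lower sites of the ITGB3 window. From 6 to 72 h these were 1 higher and 0 lower sites of the ITGA2B window, and 2 higher and 0 lower sites of the ITGB3 window. Agreement over the 5 scalings was counted for the members only, so whether these numbers differ from the general share was not tested.

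**Figure D5:**
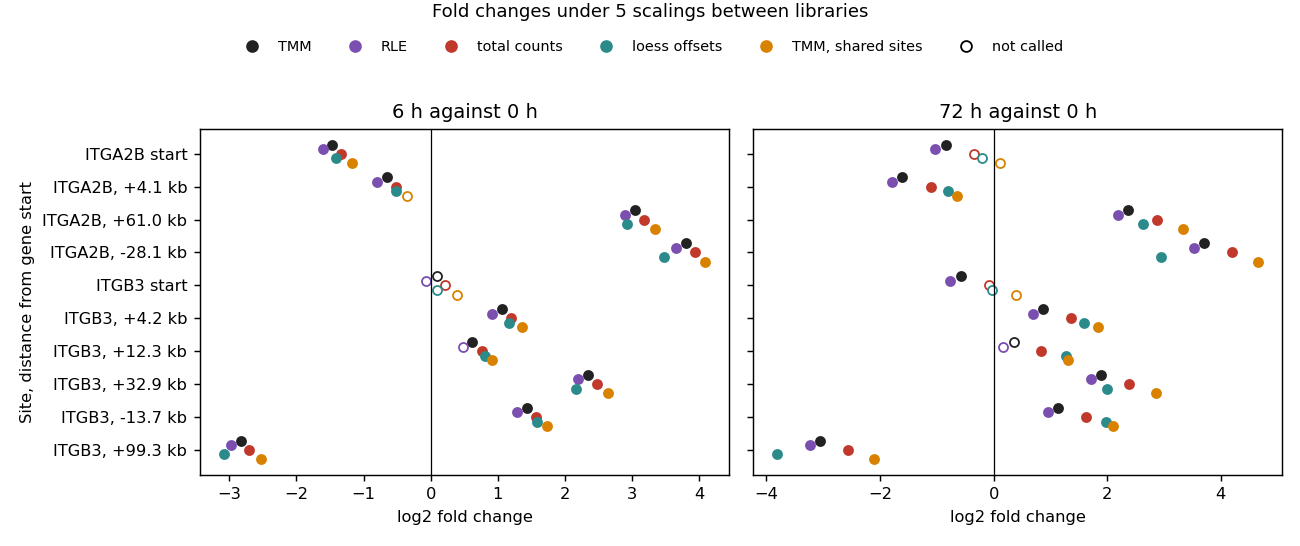
Log2 fold changes of 10 sites at 6 h and 72 h against 0 h under 5 scalings between libraries, filled where called, with the peak-anchored factors in the legend as TMM, shared sites. The ITGA2B start is called lower under all 5 at 6 h and under TMM and RLE alone at 72 h, the ITGB3 start crosses 0, and the sites 4.18 and 32.92 kb inside ITGB3 stay above 0.

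The deposited peak lists gave the same windows with less detail. In the ITGA2B window 16 and 20 of 30 sites overlapped a peak in the 0 h libraries, 11 and 19 at 6 h and 20 and 22 at 72 h. In the ITGB3 window these were 19 and 18 of 33, 18 and 23, and 24 and 22. The lowest number in the ITGA2B window belonged to 6 h replicate 1, the shallowest library, which was also the only one without a peak at the ITGA2B start, where it had 7.67 CPM. Sites with a peak in all 6 libraries numbered 8 in the ITGA2B window and 15 in the ITGB3 window, and 2 in each had none. Shares of all sites with a peak are not given here, so these counts do not show whether the windows differ from the rest.

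Sites at the ends of other genes were ranked by their distance to each integrin start in log2(CPM + 0.5), centred over the 6 libraries. The nearest to the ITGA2B start among 9564 sites were at IRF2 (distance 0.304), KCNK5 (0.410), RBM38 (0.517), IFI6 (0.550) and ACVRL1 (0.559). The IRF2 site had 19.6 and 19.7 CPM untreated, 6.73 and 7.30 by 6 h, and 10.4 and 11.3 by 72 h, also lowest at 6 h. For the ITGB3 start they were at PSORS1C2 (0.141), CTSF (0.195), NECTIN1 (0.202), PDGFA (0.208) and GDE1 (0.214), none called at 6 h and with log2 fold changes of −0.45 to −0.70 at 72 h. All these sites were chosen by likeness to the starts in the same 6 libraries, so their like time courses follow from the choice.

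Genes that activate or signal from alphaIIbbeta3 were examined at their ends, where 43 sites of 28 of 30 genes were tested. At 6 h 4 were higher (9.30%) and 18 lower (41.9%), against 9.95% and 36.3% of 19129 sites at ends of protein-coding genes. At 72 h 1 was higher (2.33%) and 33 lower (76.7%), against 12.3% and 68.7%. The median log2 fold change was −0.43 and −1.24, and that of all gene ends −0.37 and −1.16. Sites higher at 6 h were at RASGRP2, an exchange factor for RAP1 in platelets (17.3 and 18.4 CPM to 27.8 and 29.9, log2 fold change 0.70, edgeR adjusted p 0.0019), at PXN, the adaptor paxillin (0.84, 0.0012), at VAV1 (1.57, 0.0077) and at VCL, the actin linker vinculin (1.1, 0.00012). A further site at VCL fell by 0.47 (0.0056), and the VCL gain was the one of the 4 still called higher at 72 h (0.49, 0.029). The PXN site was called lower at 72 h (−0.44, edgeR adjusted p 0.044). Sites of these genes were examined on the TMM scale alone. The VAV1 gain was at a weak site, with 0.585 and 0.717 CPM untreated. The stronger site at VAV1 (13.6 and 12.8 CPM untreated) was not called at 6 h (0.10, edgeR adjusted p 0.70) and was lower at 72 h (−0.69, 0.0033). A site at an end of TLN1, the talin that binds the beta3 tail, had 70.4 and 78.2 CPM untreated, 59.4 and 60.1 by 6 h, and 26.6 and 30.9 by 72 h (−1.37, edgeR adjusted p 3.5e-08). A weaker site at TLN1 (4.16 and 4.87 CPM untreated) changed by −0.83 (0.014) by 72 h.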

How the data were processed

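Accessibility was measured by Omni-ATAC in 6 K562 libraries, 2 each after 0, 6 and 72 h of PMA. The authors deposited raw counts per site for 181135 sites, with their own log2 fold changes and adjusted p-values. They also deposited a peak list per library with a score, a fold enrichment (ratio) and −log10 p and q values, in narrowPeak layout without headers. The submitters' processing notes name Trim Galore 0.4.3, BWA 0.7.17, SAMtools 1.9, deepTools 3.0.1, MACS2, bedtools 2.26 and DESeq with hg38; read filters, any shift of read ends and how sites were merged are not given in the sources used here. Of the peak lists only position and −log10 q were used.

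Counts of all sites were fitted with edgeR 4.0.16 (R 4.3.3), TMM scaling, the filter of filterByExpr at 10 counts (177759 sites kept) and a quasi-likelihood model of the 3 times. Adjusted p-values are Benjamini-Hochberg over all tested sites, called under 0.05. SE is the absolute log2 fold change divided by the root of F. Loess offsets (limma 3.58.1, span 0.3) remove each library's trend with mean log2 count. In simulated counts 100 sites above median strength were changed by 1 on the log2 scale and 100 by 2, and all others were left unchanged. At 72 h 45% and 97% of these were called, with 10 false calls, among 173072 sites. In the data 67.4% of tested sites were called at 72 h, so these shares do not give the sensitivity there. Alternatives were RLE, total counts, loess offsets, peak-anchored TMM factors, no filter, DESeq2 1.42.0, the replicate block and each library left out.

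Genes, starts and promoter sequences came from RefSeq tables of GRCh38.p14, used by position since the notes name hg38. Sites were start sites within 1000 bases of a start, inside the gene, at an end of another protein-coding gene, inside another gene or intergenic. Named were both start sites, up to 10 sites inside each gene by mean CPM, the 3 highest and 3 lowest called changes per window at 6 and 72 h without overlap between groups, and starts of other genes. The members, lists and rules were chosen with earlier results of these data known. Some marker genes are not reported here.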

Additional observations from a re-analysis of the deposited data

How the results depend on the processing

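Counts of called sites within 1.5 times of those reported were found for every scaling, tool and filter with these exceptions. At the stricter threshold (adjusted p 0.01, log2 change beyond 1 either way) the ITGA2B window had 8 calls at 6 h and 2 from 6 to 72 h, and the ITGB3 window 8, 15 and 3 at 6 h, at 72 h and from 6 to 72 h. Of 177759 tested sites 41756, 91364 and 40148 were called at that threshold in these comparisons. With peak-anchored factors the ITGA2B window had 14 calls at 72 h and 4 from 6 to 72 h. From 6 to 72 h it had 7 under total counts and 7 under loess offsets, and the ITGB3 window had 5 with DESeq2. The cause of these shifts was not tested beyond the scaling itself. With each library left out, the ITGA2B window had 9 to 14, 20 to 25 and 4 to 16 calls, and the ITGB3 window 13 to 15, 20 to 24 and 4 to 9. With a larger required overlap, 50% of a site, 13 sites of the ITGA2B window had a peak in 0 h replicate 2.

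At the ITGA2B start, leaving out a library gave −1.81 to −1.27 at 6 h, −1.01 to −0.70 at 72 h and 0.43 to 0.96 between them. At 72 h it was −0.35 under total counts, −0.20 with loess offsets and 0.12 with peak-anchored factors. At the ITGB3 start the ranges were −0.13 to 0.27, −0.74 to −0.40 and −0.77 to −0.49, and the value at 6 h was −0.064 under RLE and −0.063 with DESeq2, and −0.13 and −0.056 without 0 h or 6 h replicate 1. At 72 h it was −0.073 with total counts, −0.034 with loess offsets and 0.40 with peak-anchored factors, and from 6 to 72 h −0.30, −0.14 and 0.0099.

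Of 934 values of other named sites under alternatives, 832 kept direction and call, 64 lost the call, 15 gained one and 23 changed sign. The sign changes were as follows. Inside ITGA2B at 13.37 kb it was 0.063 (6 h) and 0.045 (72 h) with peak-anchored factors and −0.99 to 0.12 at 6 h without a library (0.12 without 6 h replicate 1). The SLC25A39 start at 6 h had 0.10 under loess offsets and 0.11 with peak-anchored factors, and the CDC27 start 0.00062 under loess offsets. The site 3.99 kb upstream of ITGA2B had −0.059 and −0.11 at 6 h without 0 h replicate 1 or 6 h replicate 2 (highest 0.36), and 0.40 and 0.34 at 72 h under loess offsets and with peak-anchored factors. Inside ITGB3, the site at 34.9 kb had −0.083 under RLE and −0.083 with DESeq2 at 6 h, −0.066 and −0.047 without 0 h or 6 h replicate 2 (highest 0.15), and 0.24 and 0.46 at 72 h under loess offsets and with peak-anchored factors. That at 21.72 kb had −0.084 at 72 h under RLE and with DESeq2. That at 47.61 kb had −0.15 and −0.46 under loess offsets, −0.087 to 0.45 at 6 h and −0.021 to 0.41 at 72 h without a library, lowest without 6 h replicate 1 and 72 h replicate 1. The site 62.52 kb beyond the ITGB3 start had −0.054 at 72 h under loess offsets.

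Libraries of different times share a replicate number and, with it, an ending of their deposited column names, whose meaning is not given. The deviations of same-numbered libraries correlated by 0.131, 0.0762 and 0.118 across sites for the 3 pairs of times. With the replicate block the ITGA2B window had 16, 25 and 16 calls and the ITGB3 window 18, 24 and 10, and the ITGA2B start had −1.49 at 6 h and −0.86 at 72 h. Precision is limited at sites of few counts: the one 13.46 kb into ITGB3, with 5 and 1 counts at 0 h, ran from 2.62 to 5.22 at 6 h with a library left out.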

Other observations

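The authors' deposited table gives each site a class name, and these names did not follow the direction of change at the members. Of the 63 sites, 11 had a class other than static in the authors' deposited table, 8 named up and 3 named down. In 6 of the 11 the name went against the sign of the authors' own log2 fold change at 72 h: 4 sites named up had fallen and 2 named down had risen. The intergenic site 60.95 kb downstream of the ITGA2B start, for example, is named downEarly in the authors' deposited table, where its log2 fold changes are 2.88 (6 h) and 2.20 (72 h). Over all sites of the authors' deposited table, the log2 fold change at 72 h was above 0 in 71.1% of those named upLate, 69.3% of upEarly, 69.5% of downEarly and 71.9% of downLate, against 47.6% of static ones. The names therefore gave no direction and were not used here. The authors' fold changes had the sign of those reported here in 61 of 63 sites at 6 h and in 61 at 72 h.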
